A study of Mus musculus with 36 samples.

Results

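Ribosome biogenesis and rRNA processing factors were followed in mouse pre-B cells as a set of 40 named genes, all of which were found among the 12762 genes of the expression table. Messenger RNA had been sequenced in 36 libraries of the pre-B cell line B3, with 3 libraries in each of 12 groups. The Ikaros line carried a retroviral MSCV vector for HA-tagged wild type Ikaros fused to the ERt2 hormone-binding domain and followed by IRES-GFP, and the control line carried the ERt2 vector without Ikaros. Each line was collected at 0, 2, 6, 12, 18 and 24 h of 4-hydroxy-tamoxifen (4-OHT) at 0.5 uM, the drug that carries the fusion protein into the nucleus. The labels list the drug for every library, 0 h included, whereas the study's methods describe the 0 h cells as collected on other occasions and without it, so a comparison with 0 h also compares collection occasions.

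Both lines were GFP-sorted pools of transduced cells of 1 cell line, which limits them as a model of primary pre-B cells. The B lineage markers Cd79a, Cd79b, Pax5 and Ebf1 lay between the 96.9th and the 99.5th percentile of mean expression, while the 4 T cell markers were not listed. Of the 4 myeloid and the 4 erythroid markers, 2 (Lyz2 and Itgam) and 1 (Klf1) were listed, all 3 at or below the 14.6th percentile. Ikzf1, the Ikaros gene, ranged from 13.95 to 14.85 on the log2 scale in the 18 control libraries and from 19.63 to 20.93 in the 18 Ikaros libraries, with no overlap. Values are the authors' normalized log2 expression, in which a difference of 1 is a 2-fold difference. They carry no read counts. The study's methods give a target number of reads per library, but the depth reached is unknown from these values, and precision rests on the 3 libraries per group.

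A ribosome is assembled in the nucleolus from a long precursor rRNA that RNA polymerase I transcribes. Small nucleolar ribonucleoproteins (snoRNPs) guide 2'-O-methylation (box C/D) and pseudouridylation (box H/ACA) of this RNA, the small subunit processome folds and cuts the part that becomes 18S rRNA, and a separate series of helicases, GTPases and scaffold proteins matures the large subunit. Growing lymphoid precursors need this pathway for their rapid division, and many of its genes are known targets of MYC. The 40 genes were grouped by role into 6 nucleolar proteins of several functions, 3 box C/D and 4 box H/ACA proteins, 11 factors of the small subunit and 16 of the large subunit.

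The promoters of the genes on which the results turn are shown first, because the members were lower together and because each of 2 short motifs can be bound by a regulator named here, Ikaros or MYC. RefSeq promoters on GRCm38, from 250 bases before to 50 bases after the start, were matched by symbol for 34 of the 40 genes. No entry was used for Fbl, Tcof1, Rrs1, Bop1, Npm1 and Rrp12. Nip7 had the most negative difference at 2 h, Gnl3 the second most negative at 24 h and Bms1 the least negative at 24 h. For these genes the bases from 250 before the start up to the most upstream annotated start are given. The other lines give up to 30 bases around each CACGTG. Capitals mark CACGTG, the E-box letters, and TGGGAA, the core letters of Ikaros sites, each searched on both strands.
Nip7 (chr8:107056627-107056876, forward strand): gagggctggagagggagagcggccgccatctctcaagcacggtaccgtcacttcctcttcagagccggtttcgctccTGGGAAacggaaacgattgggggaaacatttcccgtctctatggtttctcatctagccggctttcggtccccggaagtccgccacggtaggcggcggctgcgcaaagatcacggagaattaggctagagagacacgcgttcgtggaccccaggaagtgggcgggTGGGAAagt
Gnl3 (chr14:31019153-31019381, reverse strand): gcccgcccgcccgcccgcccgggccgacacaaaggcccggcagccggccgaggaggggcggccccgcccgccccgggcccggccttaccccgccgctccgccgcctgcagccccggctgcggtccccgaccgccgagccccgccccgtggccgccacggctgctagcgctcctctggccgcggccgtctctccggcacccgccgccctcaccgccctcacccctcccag
Bms1 (chr6:118419475-118419667, reverse strand): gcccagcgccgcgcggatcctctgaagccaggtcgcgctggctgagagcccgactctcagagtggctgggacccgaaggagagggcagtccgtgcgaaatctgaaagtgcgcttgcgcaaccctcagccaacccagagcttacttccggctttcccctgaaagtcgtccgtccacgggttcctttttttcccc
Nop2 (chr6:125131811-125131840, forward strand): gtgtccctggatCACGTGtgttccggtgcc
Pes1 (chr11:3963965-3963994, forward strand): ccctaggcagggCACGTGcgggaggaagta
Wdr43 (chr17:71616220-71616249, forward strand): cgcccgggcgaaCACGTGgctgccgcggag
Utp20 (chr10:88826765-88826789, reverse strand): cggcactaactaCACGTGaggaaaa
Mybbp1a (chr11:72441355-72441376, forward strand): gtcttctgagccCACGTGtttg

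CACGTG, which is its own reverse complement, occurred in the promoters of 5 of the 34 genes, starting 60 bases before the start in Nop2 and at positions 3, 18, 38 and 41 after it in Pes1, Wdr43, Utp20 and Mybbp1a. That was 13.2% of the members' 38 promoters, beside 10.0% of the promoters of all genes in the table and 7.15% of all RefSeq promoters of this length. TGGGAA or its reverse complement TTCCCA occurred in 10 of the 34 genes, once upstream and once close to the start in Nip7, and no match overlapped a CACGTG. It was present in 26.3% of the members' promoters, 22.5% of those of the table and 25.6% of all. The 5 genes with CACGTG had a median log2 difference of -1.77 at 24 h and the 29 without it -1.62. The 10 genes with TGGGAA had -1.78 and the 24 without it -1.63. The members' share was thus close to both backgrounds for TGGGAA, and above both for CACGTG, where it rests on 5 promoters and was not tested. At 24 h the differences of members with a match lay within the range of those without. The medians at 2 h were -0.18 with TGGGAA and -0.28 without it, and -0.23 with CACGTG and -0.29 without it. Genes with either motif were thus not the lower ones at that time. The most negative single difference at 2 h was -0.51 with TGGGAA, that of Nip7, and -0.47 without it. The median promoter of the members had 59% GC and 22 CpG, close to the 60.7% and 20 of the table's genes.

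Ikaros cells were compared with control cells at each time, the question being when and how strongly the 2 lines diverge after induction. At 24 h, 39 of the 40 biogenesis factors were lower in Ikaros cells (limma, Benjamini-Hochberg adjusted p under 0.05 over all genes), and Bms1 was the exception. Among all 12762 genes 31.9% were called lower at 24 h. The median log2 difference of the members was -1.63, so the median member was 3.09 times lower and 32.3% of its control level remained, while the median over all genes was -0.01. A difference of at least 1 was reached by 35 members and of at least 2 by 13. In 39 members all 3 Ikaros libraries lay below all 3 control libraries, a pattern seen in 36.1% of all genes. Fewer cells that express a gene and less of its RNA per cell cannot be told apart in these bulk samples. Within batches 1, 3 and 4 the members' median difference at 24 h was -1.71, -1.58 and -1.65, and 40, 40 and 39 members were negative.

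Most of the calls appeared between 2 and 12 h. At 0 h 1 member, Wdr12, was called lower in Ikaros cells, beside 3.72% of all genes. At 2, 6, 12 and 18 h the numbers called lower were 7, 27, 39 and 40, beside 9.88%, 19.2%, 22.8% and 29.2% of all genes. From 0 to 18 h the medians over the members were -0.10, -0.25, -0.58, -1.07 and -1.56, and the medians over all genes stayed between -0.03 and -0.00. No member was called higher at any time by limma, nor was any higher at an unadjusted p under 0.05, while 4.61%, 9.18%, 18.1%, 23%, 29% and 31% of all genes were called higher from 0 to 24 h. All 3 Ikaros libraries lay below all 3 control libraries in 7, 12, 26, 39 and 40 members from 0 to 18 h, beside 18.4%, 14.5%, 21.2%, 25.4% and 32.4% of all genes.

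**Figure D1:**
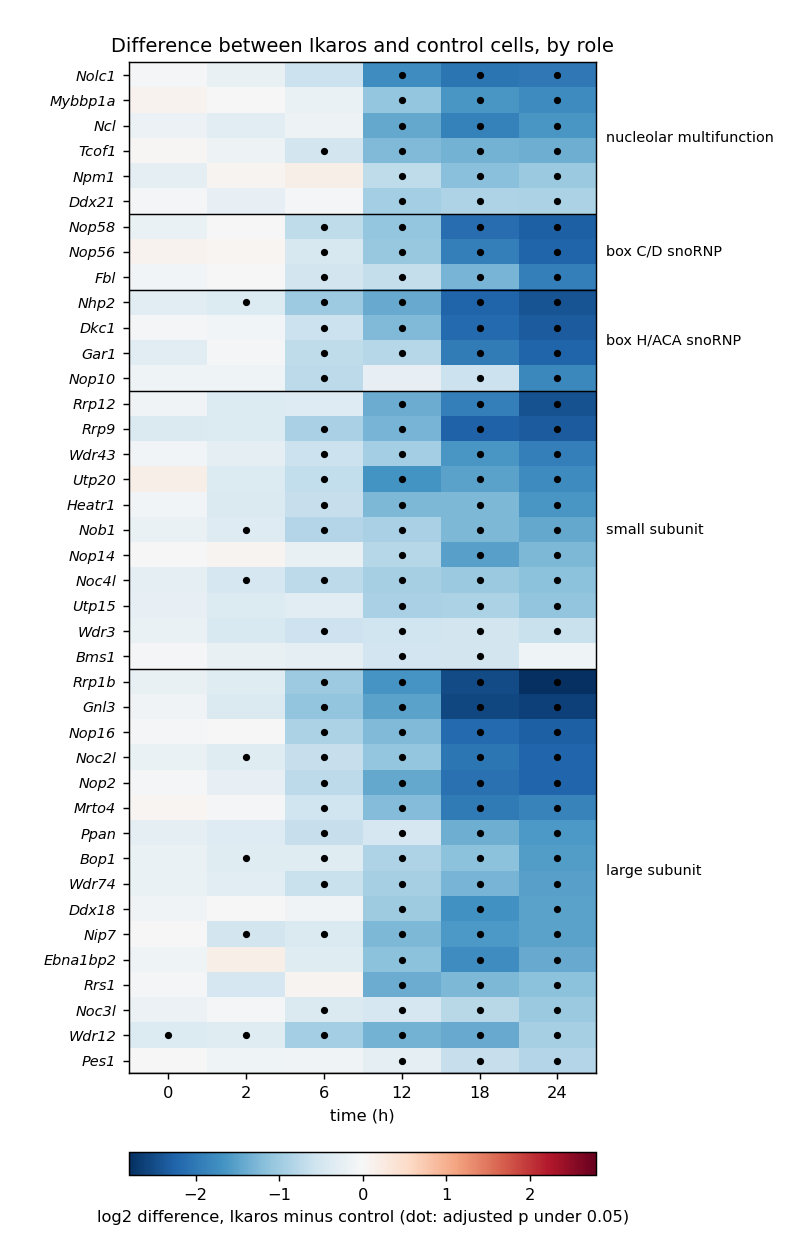
Heat map of the log2 difference, Ikaros minus control, for the 40 factors (lines, grouped by role and ordered by the 24 h value) at 6 times in hours (columns). Blue is lower in Ikaros cells and a dot marks an adjusted p under 0.05. The dots go from 1 at 0 h to 40 at 18 h and 39 at 24 h.

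The early calls were the least certain. The 7 calls at 2 h became 16 when the batch was blocked with separate blocks for 0 h, 11 when it was blocked over all times, and 0 in a fit of the 2 h libraries alone. Without replicate 1 (batch 1) it was 0 and without replicate 2 (batch 3, and batch 2 at 0 h) it was 1. In batches 1, 3 and 4 at 2 h, 27, 37 and 38 members were negative, with medians of -0.09, -0.26 and -0.26. The call of Wdr12 at 0 h was lost without replicate 1 or 2 and in a fit of the 0 h libraries alone, and 2 members were called there with either block. At 6 h the 27 calls fell to 17 without replicate 2. Of the calls, 0 of 7 at 2 h, 15 of 27 at 6 h, 35 of 39 at 12 h, 36 of 40 at 18 h and 38 of 39 at 24 h stood under every alternative run. Shares over all genes are given only for the fit of all libraries without a block. Counts from the alternatives, here and below, thus have no background beside them.

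The lines differed slightly before induction, so the change of the difference was also tested. Against the difference at 0 h, 0, 12, 32, 37 and 38 members had a lower difference at 2, 6, 12, 18 and 24 h by limma, beside 1.89%, 8.14%, 14.3%, 21% and 24.2% of all genes. At 2 h 1 member had an unadjusted p under 0.05. These 5 comparisons share the 0 h libraries. The 12 members at 6 h became 4, 0 and 6 without replicates 1, 2 and 3, and 5 in a fit of the 12 libraries compared, and the 32 at 12 h became 21 without replicate 2. Between 2 and 24 h, a comparison that uses no 0 h library, 36 members fell further, beside 24% of all genes. Wdr3, Bms1, Rrs1 and Ddx21 did not pass there, with changes of -0.21, 0.09, -0.66 and -0.66. At 24 h against 0 h the 2 that did not pass were Wdr3 (-0.45, SE 0.29, adjusted p = 0.212) and Bms1 (-0.06, SE 0.20, adjusted p = 0.828).

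In control cells the median of the members stayed near its 0 h level, while single members moved in both directions. At 6 h 21 of the 40 were below control 0 h. The furthest from it were Rrs1 (-0.71) and Gar1 (0.56), neither of them called. By limma 0 of the 40 were called against control 0 h at 2, 6, 12, 18 and 24 h, with 1, 7, 0, 6 and 2 at an unadjusted p under 0.05 and medians of 0.03, -0.03, 0.08, 0.10 and -0.01. Over all genes 0.047%, 5.1%, 0.0549%, 0.478% and 0.47% were called in either direction. When the batch was blocked, 8 members (separate 0 h blocks) or 7 (1 block) were called at 6 h, with no share over all genes to set beside them. In Ikaros cells 2, 23, 36, 40 and 38 members were lower than in Ikaros cells at 0 h, beside 9.61%, 15.6%, 22.2%, 26.5% and 29.6% of all genes. The 2 at 2 h were Heatr1 and Nip7. That count was 8 with either block and 0 when any 1 replicate was left out or when the 6 libraries compared were fitted alone. The 23 at 6 h were 9 without replicate 2 and 13 when fitted alone. The plot of values by library shows both courses.

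**Figure D2:**
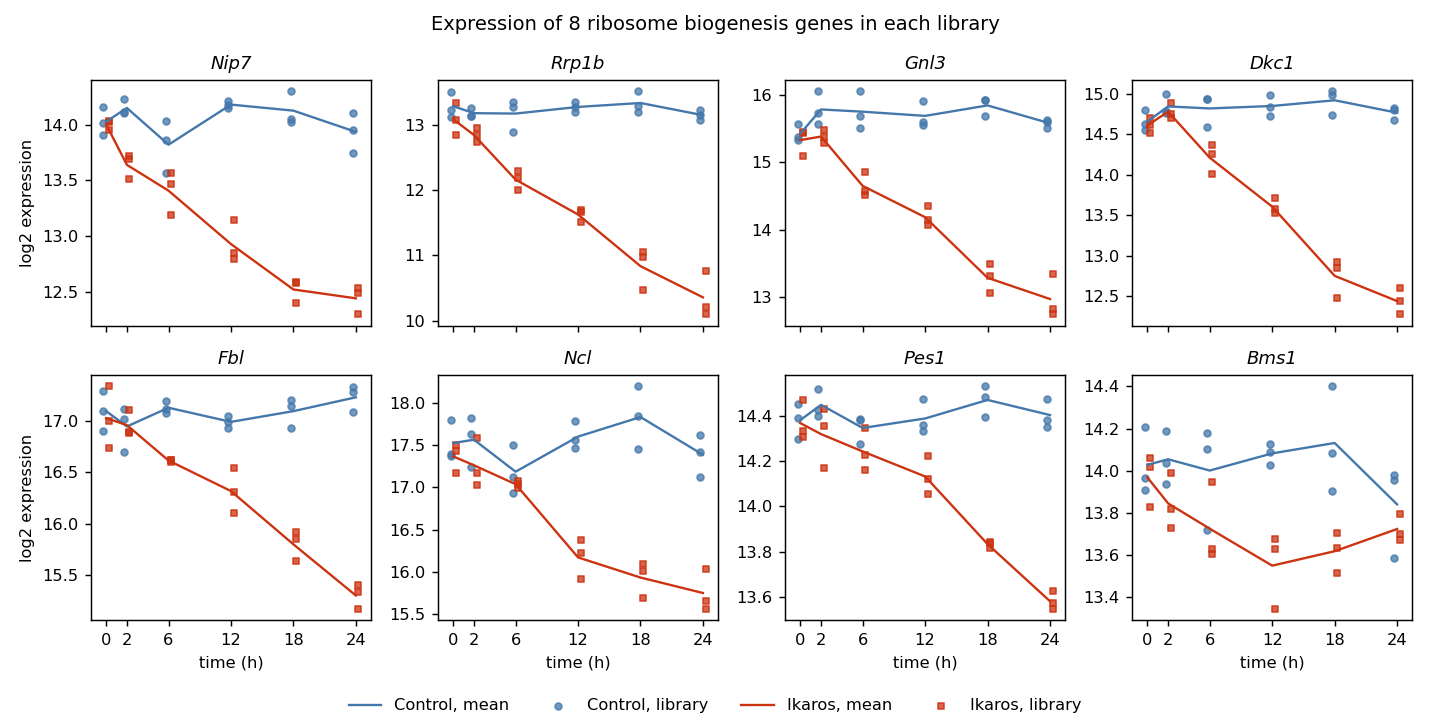
Log2 expression (vertical axes, each with its own range) of 8 factors against time in hours, with 1 point per library and lines through the means of 3 libraries, control in blue and Ikaros in red. Control means lie at most 0.42 from their 0 h level (Gnl3 at 18 h). The Ikaros values of Rrp1b go from 12.84 to 13.34 at 0 h to 10.10 to 10.76 at 24 h, and those of Bms1 overlap the control values at 24 h.

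The 16 large subunit factors ran from -2.79 to -0.82 at 24 h. Rrp1b, a nucleolar protein of the RRP1 family, had 13.06, 13.22 and 13.15 in the control libraries and 10.10, 10.76 and 10.21 in the Ikaros libraries at 24 h (batches 1, 3 and 4). The groups lay far apart, and its log2 difference of -2.79 (SE 0.16, n = 3 per group) was the most negative of the 40, 6.91 times lower in Ikaros cells (limma adjusted p = 4.9e-14). At 0 h the control libraries had 13.12, 13.22 and 13.50 and the Ikaros libraries 12.84, 13.08 and 13.34 (batches 1, 2 and 4), which overlap. Rrp1b lies at chr17:32036100-32062865, forward strand, on GRCm38.

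Gnl3, the nucleolar GTPase nucleostemin, had 15.51, 15.62 and 15.60 in control and 12.74, 13.35 and 12.82 in Ikaros cells at 24 h, a log2 difference of -2.60 (SE 0.16). Its Ikaros libraries had been at 15.09, 15.44 and 15.45 at 0 h and at 14.52, 14.57 and 14.86 at 6 h, and at 6 h they lay below every control library (15.51, 15.68 and 16.05). From 0 to 18 h the difference was -0.09, -0.40, -1.10, -1.50 and -2.56, and it was first called at 6 h, or at 2 h when the batch was blocked (adjusted p = 0.0331 with 1 block per batch). Gnl3 (chr14:31012433-31019152, reverse strand) overlaps Pbrm1 on the opposite strand.

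Nip7, an RNA-binding factor of 60S assembly, had the most negative difference of the 40 at 2 h. Control libraries were at 14.23, 14.11 and 14.11 and Ikaros libraries at 13.71, 13.69 and 13.51, so that the groups did not overlap. The log2 difference was -0.51 (SE 0.12, adjusted p = 0.00332), 1.43 times lower. The call was lost without replicate 1 (adjusted p = 0.0818) and in a fit of the 2 h libraries alone (adjusted p = 0.0710). By 24 h control libraries had 13.96, 14.11 and 13.74 and Ikaros libraries 12.29, 12.49 and 12.53, a difference of -1.50. Nip7 lies at chr8:107056877-107060931, forward strand.

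Rrs1, which helps bring the 5S ribonucleoprotein into the large subunit, was second at 2 h with a difference of -0.48 (SE 0.23), which did not pass (adjusted p = 0.150). Its control libraries were at 14.31, 13.99 and 13.51 and its Ikaros libraries at 13.85, 13.49 and 13.02, and these ranges overlap although each batch had the lower value in Ikaros cells. At 6 h the order was mixed, with control at 12.86, 13.72 and 13.32 and Ikaros at 13.15, 13.35 and 13.63. From 12 h on the groups stood apart, and at 24 h control had 13.80, 13.88 and 13.38 and Ikaros 12.50, 12.57 and 12.55, a difference of -1.15 (SE 0.23). Rrs1 was among the 3 members with their most negative difference at 12 h, together with Ddx21 and Bms1.

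Pes1, Bop1 and Wdr12 form the PeBoW complex, which large subunit maturation requires. Pes1 had 14.35, 14.48 and 14.38 in control and 13.57, 13.55 and 13.63 in Ikaros cells at 24 h, with no overlap. Its difference of -0.82 (SE 0.08) was the third least negative of the 40 and had the smallest standard error, with an adjusted p of 3.61e-10. It was first called at 12 h (-0.26, adjusted p = 0.00674), a call lost without replicate 1 and in a fit of the 12 h libraries alone. Bop1, the scaffold of the complex, was called lower from 2 h on (-0.34, after -0.18 at 0 h) and was at -1.57 at 24 h. The calls of Bop1 at 2 and 6 h were lost without replicate 1 or 2 and in fits of each time alone. Wdr12 was already lower at 0 h (-0.38, adjusted p = 0.0312), was most negative at 18 h (-1.42) and stood at -0.92 at 24 h. Its calls at 0 and 2 h were lost in the same settings. The 3 partners of this complex therefore differed from control by unequal amounts at 24 h, and their courses were not the same, though no test compared them.

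Among the other large subunit factors the rRNA methyltransferase Nop2 had a 24 h difference of -2.22, the assembly factor Nop16 -2.28 and Noc2l, which binds early pre-60S particles, -2.23. Mrto4, which holds the place of a stalk protein on pre-60S particles, was at -1.87. Ppan was at -1.60, Wdr74, a partner of the ATPase NVL, at -1.53, the helicase Ddx18 at -1.50, Ebna1bp2 at -1.41 and Noc3l, a partner of Noc2l, at -1.05. All 16 large subunit factors were lower at 24 h, with a median of -1.55, beside 31.9% of all genes called lower. At 2 h 4 of the 16 had been called lower (Bop1, Noc2l, Nip7 and Wdr12, the last already at 0 h), at 6 h 12 and at 12 h all 16. Over all genes 9.88%, 19.2% and 22.8% were called lower at these times. None of the 4 calls at 2 h stood under every alternative run. The annotation holds 2 pseudogenes named after Mrto4, with which reads could have been shared.

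Small subunit factors were lower in 10 of 11 cases at 24 h, with a median of -1.44, beside 31.9% of all genes called lower. Rrp12, which takes part in maturation and export of the pre-ribosome, had 13.55, 13.34 and 13.19 in control and 10.88, 11.22 and 10.67 in Ikaros cells at 24 h, and the groups stood apart. The difference was -2.44 (SE 0.20), 5.41 times lower, and the gene lies at chr19:41862851-41896173, reverse strand. At 6 h it was -0.37 and did not pass (adjusted p = 0.157), with control at 13.28, 13.24 and 12.96 and Ikaros at 12.87, 12.79 and 12.71, so most of its change came between 6 and 24 h. When the batch was blocked with separate 0 h blocks it passed at 6 h (adjusted p = 0.00932).

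Heatr1, a component of the early processome that binds the precursor as it is transcribed, had 14.30, 14.28 and 14.17 in control and 12.66, 12.71 and 12.53 in Ikaros cells at 24 h. The groups stood apart, with a difference of -1.62 (SE 0.15). At 2 h its difference was -0.40, with control libraries at 14.25, 14.29 and 13.95 and Ikaros libraries at 13.96, 13.88 and 13.45, which overlap, and it just missed the threshold (adjusted p = 0.0584). When the batch was blocked it passed (adjusted p = 0.0353 with 1 block per batch). Its partners in the same early subcomplex, Wdr43 and Utp15, were at -1.92 and -1.11 at 24 h.

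Nob1, the endonuclease that makes the last cut of 18S rRNA, had 13.84, 13.79 and 13.85 in control and 12.27, 12.50 and 12.38 in Ikaros cells at 24 h, a difference of -1.44 (SE 0.12) between groups that stood apart. It was among the early members, at -0.36 at 2 h (adjusted p = 0.0433) and -0.83 at 6 h. At 2 h control libraries had 13.82, 13.82 and 14.13 and Ikaros libraries 13.37, 13.55 and 13.78, each Ikaros library below each control library. The same order held at 0 h, where the difference was -0.19 and not called (limma adjusted p = 0.445). The 2 h call was lost without any 1 replicate and in a fit of the 2 h libraries alone (adjusted p = 0.289).

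Noc4l, the partner of Nop14 in the processome, was the third most negative at 2 h. Control libraries were at 13.50, 13.55 and 13.31 and Ikaros libraries at 13.16, 13.03 and 12.77, with no overlap and a difference of -0.47 (SE 0.12, adjusted p = 0.00827). Before induction, at 0 h, the difference had been -0.28, without a call. The 2 h call was lost without replicate 1 or 2 and in a fit of the 2 h libraries alone (adjusted p = 0.145). At 24 h control had 13.39, 13.61 and 13.43 and Ikaros 12.28, 12.31 and 12.42, a difference of -1.14. Its partner Nop14 was at 0.09 at 2 h and first called at 12 h (-0.80), was most negative at 18 h (-1.52) and at -1.25 at 24 h. Both members of this pair were thus lower at the end, but only Noc4l was called at 2 and 6 h. That difference between the partners was not tested.

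Bms1, a GTPase of the processome, was the exception at 24 h. Control libraries had 13.98, 13.96 and 13.58 and Ikaros libraries 13.67, 13.80 and 13.70, which overlap. The difference was -0.12 (SE 0.14, adjusted p = 0.476), positive at 0.116 in batch 4 and negative in the others. It had been lower at 12 h, with control at 14.13, 14.09 and 14.03 and Ikaros at 13.63, 13.68 and 13.34, a difference of -0.53 (adjusted p = 0.00242), and at 18 h (-0.51). The step from 18 to 24 h, 0.40 (SE 0.20), did not pass. Bms1 lies at chr6:118383381-118419474, reverse strand.

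Wdr3, a scaffold of the processome, was the next least negative at 24 h. Control libraries had 13.03, 13.18 and 13.00 and Ikaros libraries 12.56, 12.45 and 12.32, with no overlap. The difference was -0.63 (SE 0.21, adjusted p = 0.00978), and the call was lost without replicate 1 and without replicate 2 (adjusted p = 0.121). Of the other small subunit factors, the U3 snoRNP protein Rrp9 was at -2.33 at 24 h and Utp20 at -1.77.

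The snoRNP proteins were the roles with the most negative medians at 24 h, -2.24 for the 3 box C/D proteins and -2.29 for the 4 box H/ACA proteins. All 7 were called lower, beside 31.9% of all genes. Fbl, the 2'-O-methyltransferase fibrillarin, had 17.08, 17.28 and 17.32 in control and 15.17, 15.34 and 15.40 in Ikaros cells at 24 h, with no overlap and a difference of -1.92 (SE 0.14). At 2 h it did not differ beyond the spread (0.01, SE 0.14), with control at 16.70, 17.11 and 17.02 and Ikaros at 17.10, 16.88 and 16.89. At 6 h, with control at 17.19, 17.07 and 17.11 and Ikaros at 16.61, 16.60 and 16.62, it was lower by call (-0.51, adjusted p = 0.00404). Nop56 and Nop58, the scaffold proteins that hold fibrillarin on the guide RNA, were at -2.24 and -2.28 at 24 h.

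Dkc1, the pseudouridine synthase dyskerin, had 14.68, 14.80 and 14.82 in control and 12.27, 12.59 and 12.44 in Ikaros cells at 24 h. The groups stood apart, with a difference of -2.33 (SE 0.12), 5.02 times lower. Ikaros libraries were at 14.75, 14.70 and 14.88 at 2 h, beside control libraries at 14.78, 14.76 and 14.99, and at 14.01, 14.25 and 14.37 at 6 h, when control libraries had 14.59, 14.93 and 14.94. Of its partners in the box H/ACA core, Nhp2 was called lower from 2 h on (-0.38, then -2.41 at 24 h) and Gar1 from 6 h on (-2.25 at 24 h). At 0 h both were already at -0.29, with all Ikaros libraries below all control libraries, and neither was called. The 2 h call of Nhp2 was lost without any 1 replicate and in a fit of the 2 h libraries alone (adjusted p = 0.265).

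Nop10, the smallest protein of this core, had its own course. It was lower at 6 h (-0.72) and not called at 12 h (-0.24, adjusted p = 0.212), when control libraries had 16.46, 16.38 and 16.44 and Ikaros libraries 16.01, 16.08 and 16.47. It was lower again at 18 h (-0.60), and at 24 h control had 16.52, 16.71 and 17.04 and Ikaros 14.85, 15.16 and 14.82, a difference of -1.81. It was the 1 member whose step from 18 to 24 h passed (-1.22, SE 0.22, adjusted p = 0.00299). In that step the control mean rose from 16.16 to 16.76 and the Ikaros mean fell from 15.57 to 14.94. The call of the step was lost without any 1 replicate, and the call at 18 h without replicate 1 (adjusted p = 0.0538).

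Of the 6 nucleolar proteins of several functions, 0 were called lower at 2 h, 1 (Tcof1) at 6 h and all 6 at 12 h. The shares over all genes at these times were 9.88%, 19.2% and 22.8%. Nolc1, at -0.61 at 6 h, was also called then when the batch was blocked (adjusted p = 0.0246 with separate 0 h blocks and 0.0393 with 1 block per batch). At 6 h all 6 were below control 0 h in control cells, with a median of -0.30 and 0 called. In Ikaros cells the median against their own 0 h was -0.54, with 3 called lower, beside 15.6% of all genes. Ncl, nucleolin, had 17.42, 17.62 and 17.12 in control and 15.56, 16.03 and 15.66 in Ikaros cells at 24 h, with no overlap and a difference of -1.64 (SE 0.20). At 6 h control had 16.93, 17.50 and 17.13 and Ikaros 17.00, 17.05 and 17.07, which overlap (-0.15, adjusted p = 0.593). At 12 h control was at 17.46, 17.78 and 17.56 and Ikaros at 16.23, 16.37 and 15.91, a difference of -1.43. It was most negative at 18 h, at -1.90.

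Npm1, nucleophosmin, a histone and ribosomal protein chaperone, had 17.37, 17.51 and 16.84 in control and 16.08, 16.28 and 16.23 in Ikaros cells at 24 h. The groups stood apart, with a difference of -1.04 (SE 0.21). At 6 h the difference was 0.16, with control at 16.87, 17.27 and 17.18 and Ikaros at 17.15, 17.25 and 17.39. The call at 12 h (-0.71, adjusted p = 0.00603) was lost without replicate 1 or replicate 3 and in a fit of the 12 h libraries alone.

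Nolc1, the snoRNP chaperone Nopp140, was the most negative of this group at 24 h (4.01 times lower), followed by Mybbp1a, a nucleolar regulator of rRNA transcription, at -1.75. Tcof1, the treacle protein that supports RNA polymerase I, was at -1.36 and the helicase Ddx21 at -0.89, its most negative value being -0.96 at 12 h.

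The plot of the 24 h differences gives the order of all 40. After Rrp1b, Gnl3 and Rrp12, 9 members lay between -2.41 and -2.22 (Nhp2, Rrp9, Dkc1, Nop58, Nop16, Gar1, Nop56, Noc2l and Nop2) with standard errors of 0.09 to 0.21, so that neighbours in this stretch do not differ beyond their spread. Of all genes tested, 12 members were in the lowest 5% at 24 h, 27 in the lowest 10% and 38 in the lowest 25%, and 0 were at or above the median gene. Across the 40 members the difference at 18 h followed that at 24 h (Pearson r 0.866, Spearman rho 0.851), the differences at 12 and 6 h less so (r 0.539 and 0.568), and that at 2 h not (r -0.031). The differences at each time come from other libraries, but the points share normalization and genes are not independent. The control level at 0 h had an r of -0.177 with the 24 h difference.

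**Figure D3:**
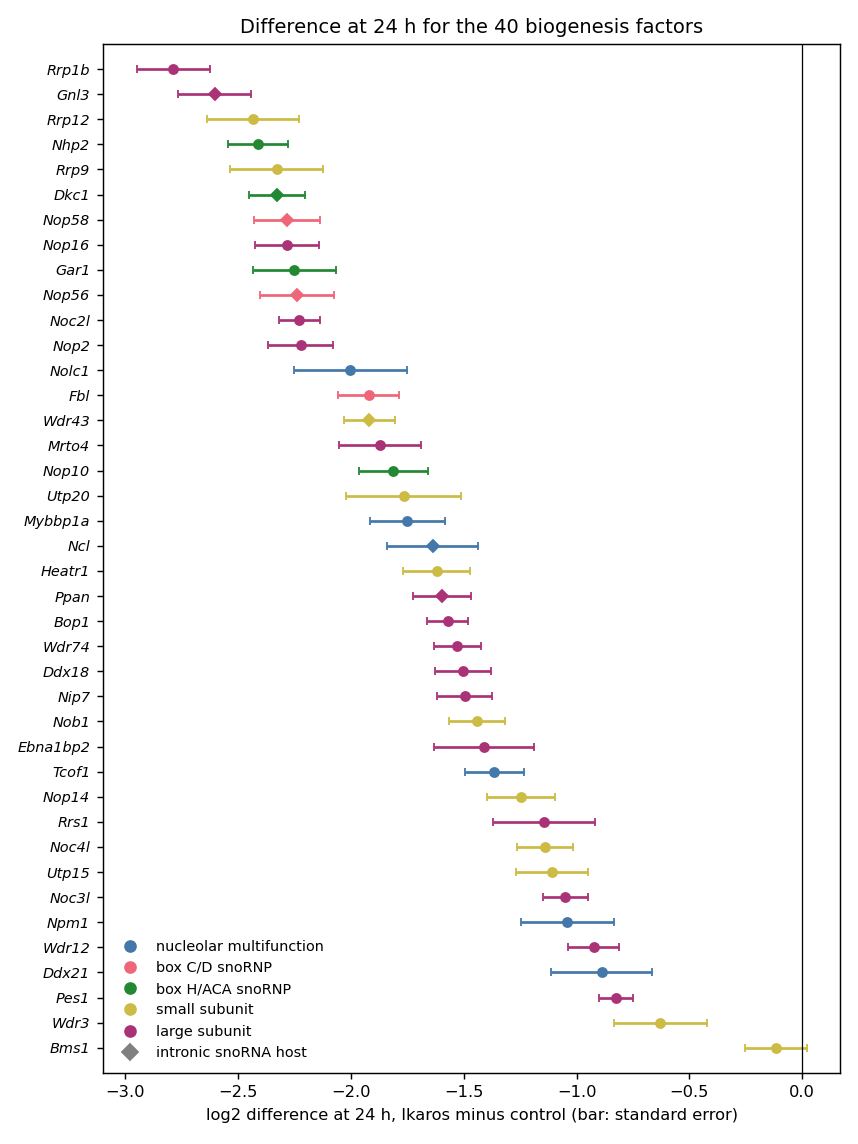
Log2 difference at 24 h, Ikaros minus control (horizontal axis), for each of the 40 factors in order, with bars of 1 standard error, colours for roles and diamonds for genes with an intronic snoRNA. Values run from -2.79 for Rrp1b to -0.12 for Bms1, the bar of which reaches 0.

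Members passed the threshold at different times, and these times were not compared by a test. Called lower at that time and every later one were Wdr12 from 0 h, 6 members from 2 h (Nhp2, Noc4l, Nob1, Bop1, Noc2l and Nip7), 19 from 6 h and 12 from 12 h. The 6 from 2 h had stood, in the order named, at -0.29, -0.28, -0.19, -0.18, -0.18 and -0.02 at 0 h. Those from 12 h were Ncl, Npm1, Ddx21, Nolc1, Mybbp1a, Utp15, Nop14, Rrp12, Pes1, Rrs1, Ddx18 and Ebna1bp2. Nop10 counted from 18 h and Bms1 from no time. The difference was most negative at 24 h in 28 members, at 18 h in 9 and at 12 h in 3.

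Steps between neighbouring times were added after the values had been seen. From 2 to 6 h 4 members fell (Nop16, Nop58, Nhp2 and Wdr12), from 6 to 12 h 13, from 12 to 18 h 18 and from 18 to 24 h 1, beside 3.2%, 7.04%, 6.19% and 1.92% of all genes. Rrs1 (-1.46), Ncl (-1.28), Nolc1 (-1.12) and Rrp12 (-1.03) had the most negative called steps from 6 to 12 h, and Gar1 (-1.16), Nop58 (-1.06) and Gnl3 (-1.05) from 12 to 18 h. A step can also come from the control cells. From 6 to 12 h the mean of Rrs1 rose from 13.30 to 13.95 in control cells and fell from 13.38 to 12.57 in Ikaros cells. The counts of called steps were unstable. With separate 0 h blocks they were 12 from 2 to 6 h, 23 from 6 to 12 h and 5 from 18 to 24 h. Without any 1 replicate the first and the last step gave 0. Without replicate 1 the steps from 6 to 12 h and from 12 to 18 h gave 2 and 3, and without replicate 2 they gave 3 and 1.

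The rest of the pathway was read from lists chosen beside the members. Of 117 other ribosome assembly factors 95 were lower and 4 higher in Ikaros cells at 24 h, with a median of -1.05. Over all genes 31.9% were called lower and 31% higher at that time. Mdn1, the large ATPase that remodels pre-60S particles, had 13.49, 13.35 and 13.36 in control and 10.23, 10.56 and 10.27 in Ikaros cells, a difference of -3.05 (SE 0.16). Nat10, which acetylates 18S rRNA, had 13.46, 13.56 and 13.41 against 10.60, 10.80 and 10.73 (-2.77), and Shq1, the chaperone of dyskerin, 10.97, 11.02 and 11.29 against 8.43, 8.87 and 8.55 (-2.48). All 3 stood apart between the lines, as Dkc1 did.

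The 4 factors higher in Ikaros cells were fewer and mostly smaller in size. Gltscr2, also named Nop53, an adaptor of the exosome on pre-60S particles, had 15.72, 15.59 and 15.46 in control and 16.90, 16.60 and 16.95 in Ikaros cells, a difference of 1.23 (SE 0.14). Ddx52, a small subunit helicase, had 12.31, 12.55 and 11.97 against 13.07, 12.93 and 13.01 (0.73). Ddx24, a large subunit helicase, had 13.77, 13.80 and 13.55 against 14.28, 14.22 and 14.15 (0.51), and Tsr3, a modifier of 18S rRNA, 13.52, 13.43 and 13.40 against 13.79, 13.52 and 13.73 (0.23). The groups did not overlap in any of the 4, although in Tsr3 the highest control library and the lowest Ikaros library had the same value to 2 decimals.

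RNA polymerase I genes were lower in 11 of 15 cases and higher in 2 at 24 h, with a median of -0.62, beside 31.9% and 31% of all genes. The 78 cytosolic ribosomal protein genes, the products of which the biogenesis factors assemble, had 16 lower and 1 higher at 12 h (median -0.27), 19 lower and 2 higher at 18 h (-0.25), and 4 lower and 6 higher at 24 h (0.02). The lower calls were 20.5%, 24.4% and 5.13% of this list, beside 22.8%, 29.2% and 31.9% of all genes, so at 12 and 18 h they were near the background. For the higher calls the shares over all genes were 23%, 29% and 31%. No test compared these lists with the members.

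**Figure D4:**
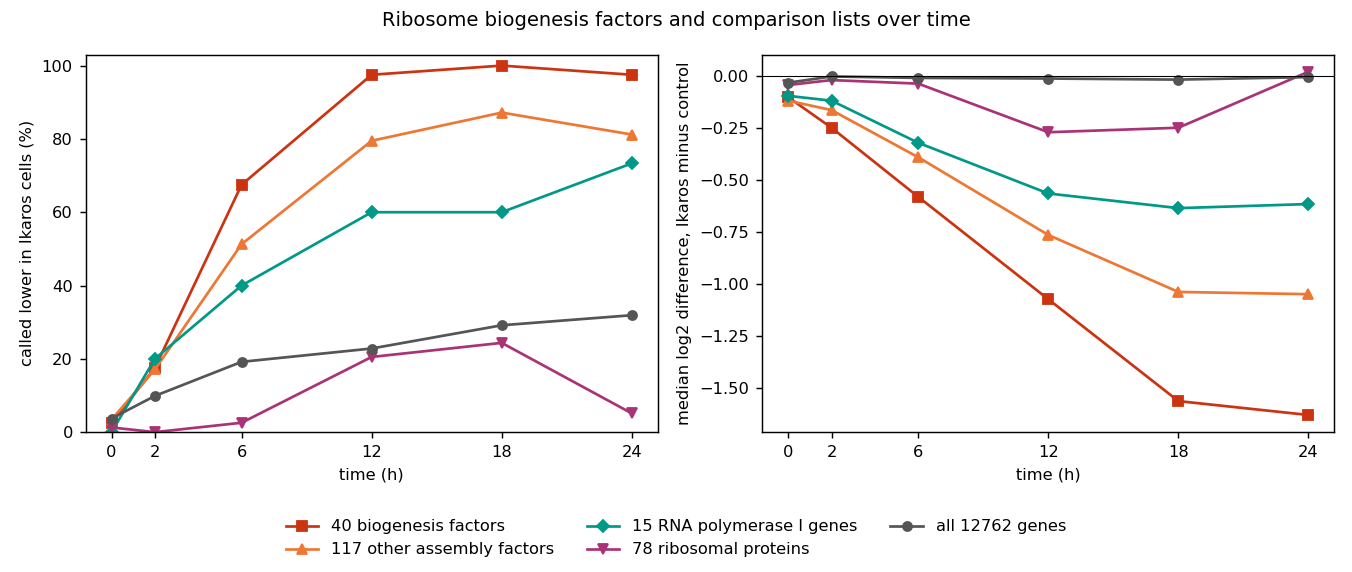
Share called lower in Ikaros cells in percent (left) and median log2 difference (right) against time in hours for the 40 factors, 3 comparison lists and all genes. The 40 factors reach 100% at 18 h and a median of -1.63 at 24 h, while ribosomal proteins end at 0.02 and all genes at -0.01.

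Some members hold small nucleolar RNA genes. By GENCODE annotation on GRCm38, 7 of the 40 (17.5%) held a small nucleolar RNA inside an intron on the same strand, compared with 222 of 12592 genes of the table (1.76%). These hosts were Ncl, Nop56, Nop58, Dkc1, Wdr43, Gnl3 and Ppan, with 19 snoRNAs in all. Intronic snoRNAs are released from the spliced transcript of their host. At 6, 12, 18 and 24 h the hosts' median difference was -0.61, -1.07, -1.92 and -2.24, beside -0.56, -1.07, -1.42 and -1.53 in the other 33. The ranges at 24 h, -2.60 to -1.60 in hosts and -2.79 to -0.12 in the others, overlap widely, and the snoRNAs themselves are not measured by this messenger RNA table.

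Some values carry a limit of annotation. Genes on the opposite strand overlap Mybbp1a, Nop56, Dkc1, Nhp2, Heatr1, Wdr43, Wdr3, Rrp9, Nop14, Pes1, Bop1, Wdr12, Gnl3, Rrp1b and Noc2l. The libraries were stranded, but the strand setting of the counting is not given in the sources used here, so reads of these pairs might not have been told apart. All 40 members had a mean expression above the median gene, so none was lost to a filter on low values.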

How the data were processed

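Stranded poly(A) libraries of B3 cells (3 per line and time) were sequenced by the study. The deposited values are log2 expression, which the authors made from paired-end reads aligned to mm10 with TopHat2 and counted per gene with HTSeq, normalized with cqn and corrected for effects of library preparation with ComBat, a constant being added so that the lowest value is 1. The log base follows from cqn and is not stated in the file. Tool versions are not given in the sources used here, and of the depth the methods give only a target.

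A means model of 12 groups was fitted to all 12762 genes with limma 3.58.1 in R 4.3.3 (24 residual degrees of freedom). P-values are two-sided, moderated and adjusted by Benjamini-Hochberg over all genes, with calls below 0.05. P-values measure the spread between culture batches. Same-batch samples of the 2 lines were checked for shared deviations, the labels giving the batch numbers (18 pairs, correlations of -0.0620 to 0.507, median 0.127, 12 above 0.1). Alternatives were 2 batch blocks, a 25th percentile filter (9571 genes), quantile normalization, 75th percentile centring, trended robust moderation, fits of the compared groups and leaving out replicates. Steps between times were added after seeing the data. The 40 members, their roles and all comparison lists were chosen with earlier results of these data known. Values per library are given for the 3 members most and the 3 least negative at 24 h, the 3 most negative at 2 h, Ncl, Npm1, Fbl, Dkc1, Pes1, Heatr1 and Nob1, and the other factors that were the 3 most negative or were called higher at 24 h. Nop10 was added after its values were seen. The tests were checked on simulated data. Promoters are from RefSeq (GRCm38) and gene positions from GENCODE on the same build. The result of 1 B lineage marker is not reported here.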

Additional observations from a re-analysis of the deposited data

Results flagged for a closer look

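Whether the members' gap between the lines changed with time was tested directly. Relative to 0 h, the gap changed in 0, 12, 32, 37 and 38 of the 40 members at 2, 6, 12, 18 and 24 h (limma, adjusted p under 0.05). Each of these changes was toward lower values in Ikaros cells, as were those of 1.89%, 8.14%, 14.3%, 21% and 24.2% of all genes. At 2 h 1 member had an unadjusted p under 0.05. The 12 members called at 6 h were 0 to 6 when 1 replicate was left out. Between 2 and 24 h the gap changed in 36 members, all toward lower values, beside 24% of all genes. The most negative changes from 0 to 24 h were those of Rrp1b (-2.59) and Gnl3 (-2.51), and that of Bms1 was -0.06. The 0 h cells were collected on other occasions, whereas the 2 and 24 h cells shared their batches.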

How the results depend on the processing

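The counts of members lower at 12, 18 and 24 h stayed within 1.5 times of the reported ones under each alternative run. No median moved beyond the spread between batches, but a fit with a block or without 1 replicate could hardly exceed that spread. Without 1 replicate the members' medians ran from -1.15 to -0.96 at 12 h, -1.64 to -1.53 at 18 h and -1.66 to -1.59 at 24 h. Leaving out 1 replicate gave 36 to 38, 37 to 40 and 38 to 39 members at 12, 18 and 24 h, 0 to 1 at 0 h, 0 to 8 at 2 h and 17 to 27 at 6 h. For the change from 0 h it gave 0 to 6 at 6 h, 21 to 29 at 12 h, 30 to 39 at 18 h and 33 to 38 at 24 h, and from 2 to 24 h 32 to 38. For Ikaros cells against their own 0 h it gave 0 at 2 h, 9 to 17 at 6 h and 32 to 34 at 12 h. The steps from 2 to 6 h and from 18 to 24 h gave 0, that from 6 to 12 h 2 to 11 and that from 12 to 18 h 1 to 14.

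With the batch as a replicate block (separate 0 h blocks, then 1 block per batch), the members called were 2 and 2 at 0 h, 16 and 11 at 2 h, 8 and 8 between 0 and 2 h in Ikaros cells, and 8 and 7 between 0 and 6 h in control cells. The steps gave 12 and 9 from 2 to 6 h, 23 and 20 from 6 to 12 h, and 5 and 4 from 18 to 24 h. Between the lines, the block with separate 0 h blocks added 9 members at 2 h and Nolc1, Utp15 and Rrp12 at 6 h, and changed no other call from 2 to 24 h. Fits of the compared libraries alone gave 0 at 0 h, 0 at 2 h, 5 for the change from 0 to 6 h, 0, 5, 7 and 0 for the 4 steps in order, and 0 and 13 for Ikaros cells at 2 and 6 h against 0 h. These fits have fewer samples. No share over all genes is given for them or for the blocked fits.

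Signs turned only in members without a call. At 2 h quantile normalization gave 0.00413 for Mybbp1a and 0.00805 for Nop58. Leaving out 1 replicate at 2 h gave log2 differences of -0.0302 to 0.135 for Npm1, -0.0786 to 0.0638 for Mybbp1a, -0.182 to 0.136 for Fbl, -0.0439 to 0.139 for Nop56, -0.0526 to 0.0606 for Nop58, -0.0950 to 0.0876 for Nop16, -0.0270 to 0.00936 for Ddx18, -0.000105 to 0.251 for Ebna1bp2 and -0.200 to 0.0443 for Mrto4. At 6 h it gave -0.254 to 0.00585 for Ncl, -0.147 to 0.0844 for Ddx21 and -0.0371 to 0.301 for Rrs1.

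The values hold no counts, so limits from depth cannot be given, and the precision rests on 3 libraries per group.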
